A study of Mus musculus with 4 samples.

Results

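The genes described here are 37 that belong to the ATF4 arm of the integrated stress response, to serine and folate metabolism and to the charging of transfer RNA, out of 55029 gene identifiers in the table of the series. They were chosen by name, as known targets of the transcription factor ATF4 or enzymes of these pathways, with earlier results of these data known. All 37 were found. They fall into 8 stress regulators, 6 enzymes of amino acid synthesis, 5 enzymes of folate one-carbon metabolism and 18 cytosolic tRNA synthetases. The RNA came from macrophages of wild-type genotype, obtained from MCA fibrosarcoma (9609) tumours of mice and exposed in culture to exosomes, the small vesicles that cells release. In 2 samples the exosomes were MEK1-hi, that is rich in the kinase that activates ERK, and in the other 2 they were MEK1-low, which the labels also mark as GFP. MEK1 content therefore cannot be told apart from that other difference between the vesicles, and no macrophages without exosomes were among the 4 samples. The labels say neither whether the samples of a group were separate cultures or animals nor which cells released the vesicles.

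When cells run short of amino acids, or proteins misfold in the endoplasmic reticulum, kinases phosphorylate the translation factor eIF2. Most protein synthesis then slows while ATF4 protein is made more, because of upstream reading frames in its messenger RNA. ATF4 pairs with C/EBP family proteins on a DNA motif, the C/EBP-ATF response element, and switches on amino acid transporters, enzymes that make asparagine, serine and proline, and many tRNA synthetases. In macrophages the serine made this way feeds glutathione and one-carbon units. Since much of the control of ATF4 lies in translation, its messenger RNA level is not a measure of its protein.

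The motif is shown first. Its letters were not used to choose the genes, but many were chosen as known targets of ATF4. The share of these genes with the motif is therefore not independent of that choice. The letters TGATGNAA were searched on both strands in RefSeq promoters of build GRCm38.p6, each running from 250 bases before to 50 bases after a transcript start. Of the 37 genes, 30 had an entry (all but Cars, Hars, Lars, Nars, Rars, Vars and Wars), and 10 of these 30 held the motif, against 4.51% of all 27025 genes with an entry. With the stricter letters TGATGCAA, which are a subset of the first, the count was 7 of 30 against 1.03% of all genes. Aars held 2 matches, and its stricter match, farther from the start, is not printed below. A match describes these letters and does not show that ATF4 bound there. For each gene the match nearest the start is printed below 5′ to 3′ along the gene's strand in 30 bases, with the motif, or its reverse complement, in capitals.
Asns, chr6:7693214-7693243, minus strand: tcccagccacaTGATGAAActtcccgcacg
Pycr1, chr11:120643833-120643862, minus strand: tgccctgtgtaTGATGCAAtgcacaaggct
Trib3, chr2:152344028-152344057, minus strand: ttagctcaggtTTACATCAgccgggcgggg
Chac1, chr2:119351038-119351067, plus strand: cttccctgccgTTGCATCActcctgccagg
Vldlr, chr19:27216809-27216838, plus strand: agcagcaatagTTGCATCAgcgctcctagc
Aars, chr8:111033840-111033869, plus strand: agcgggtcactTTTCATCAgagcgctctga
Gars, chr6:55037960-55037989, plus strand: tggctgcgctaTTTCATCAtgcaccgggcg
Iars, chr13:49682126-49682155, plus strand: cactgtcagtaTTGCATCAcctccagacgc
Tars, chr15:11399655-11399684, minus strand: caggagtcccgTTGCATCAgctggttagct
Yars, chr4:129189895-129189924, plus strand: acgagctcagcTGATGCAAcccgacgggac

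The printed matches of Asns, Gars, Tars, Yars, Iars, Trib3 and Aars lay close to the start, between 30 bases before it and 14 bases after it. Those of Pycr1, Chac1 and Vldlr lay between 103 and 200 bases before it. Distances are from the RefSeq start, and Vldlr had 2 such starts with a match at 1 of them. GENCODE spans of some of these genes begin farther upstream, among them Vldlr (base 27216484 of chromosome 19) and Aars (base 111033144 of chromosome 8). None of the 5 folate enzymes held the motif in this window. Psat1, the single gene of the 37 called between the groups (below), had 2 starts in RefSeq and no match at either. The GENCODE span of this gene, given below, begins farther upstream, at base 15947337 of chromosome 19. That start was not searched. The 250 bases before the upstream of the 2 RefSeq starts of Psat1 are printed because the gene carries the call, with no capitals since nothing matched.
Psat1, chr19:15925060-15925309, minus strand: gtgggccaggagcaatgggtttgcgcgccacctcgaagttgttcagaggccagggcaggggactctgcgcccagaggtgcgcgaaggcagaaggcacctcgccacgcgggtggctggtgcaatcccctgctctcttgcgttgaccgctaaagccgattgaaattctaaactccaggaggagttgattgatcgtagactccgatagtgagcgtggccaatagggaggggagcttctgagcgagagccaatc

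**Figure D1:**
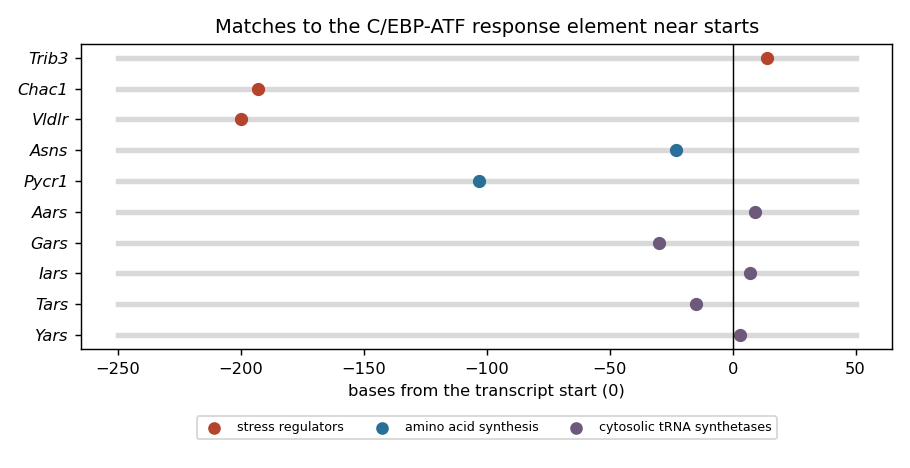
Position of the match nearest the start in each of the 10 genes that held the motif. The horizontal axis gives the distance in bases from the transcript start (0), each grey bar is the 300-base window searched, each point is the first base of a match, and colour gives the gene group; 7 of the 10 points sit between 30 bases before and 14 bases after the start.

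Levels are given in FPKM, fragments per kilobase of transcript scaled to library size, so that genes of different length can be compared. Where 2 levels are given together, the one with MEK1-low exosomes comes first. The table holds 1 value per group, so no value per sample and no spread between samples stands beside any level, and the depth of the libraries is unknown. Every test of a gene is the authors' own Cuffdiff test of MEK1-hi against MEK1-low exosomes, and a gene is called where its q-value, adjusted over all 12648 loci tested, is under 0.05. With 2 samples a group, these p-values speak at most for the spread between these samples, which may be technical. Macrophage markers were abundant in both groups, with Lyz2 at 12303 and 13148 FPKM, and none of the 8 examined was called by Cuffdiff (1 was higher, 0 lower at p below 0.05 before adjustment). Of the fibroblast markers examined, which tumour cells would also carry, the highest was Col1a1 at 1.60 and 1.59 FPKM. Markers of other cell types summed to lower levels with MEK1-hi exosomes, none of them called. Not every member was lower: Cd3d, Cd3e, Ms4a1, Lum, Kdr and Epcam had the higher value, all under 1 FPKM in both groups. The 6 neutrophil genes summed to 73.3 and 53.4 FPKM, with S100a8 at 35.5 and 22.6 FPKM (p = 0.00405, q = 0.118 in the authors' deposited table), Csf3r at 37.8 and 30.8 FPKM, and S100a9, Ly6g, Mpo and Elane listed at 0 in both groups. The 6 T cell genes summed to 6.99 and 4.81 FPKM, most of it Cd4 at 6.52 and 4.52 FPKM, and the 4 B cell genes to 2.25 and 2.12 FPKM, most of it Cd79b. The 6 endothelial and epithelial genes summed to 8.16 and 5.30 FPKM, most of it Krt18 at 6.48 and 4.05 FPKM (p = 0.00620, q = 0.160 in the authors' deposited table). The 7 fibroblast genes summed to 5.71 and 4.61 FPKM. The part of these cells in the values below was not tested.

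Psat1 rose with MEK1-hi exosomes, and none of the other 36 genes was called in either direction. Cuffdiff, in the authors' deposited table, called 1 of the 35 genes tested higher, where 0.751% of all tested loci were called higher. None was called lower, where 1.69% of all tested loci were. The 1 call is 2.86% of the 35 genes, against 2.44% of all loci called in either direction, so the share of these genes called is near the background. With p below 0.05 before adjustment, again from the authors' deposited table, 2 were higher (background 3.53%) and 0 lower (background 5.12%), which is 5.71% of the 35 against 8.66% of all loci. Chac1 and Vldlr were too low to be tested.

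Values with MEK1-hi exosomes were higher for 26 and lower for 9 of the 35 genes tested. For the 32 of the 37 genes that were tested and reached 1 FPKM in at least 1 group, the median log2 fold change on the log2(FPKM + 1) scale was 0.09. Over all 11804 loci at that level the same median was 0.00, with the middle 50% of loci between -0.14 and 0.13, and 50.2% had the higher value with MEK1-hi exosomes. Members of a pathway share their regulation, so these counts are not independent observations.

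**Figure D2:**
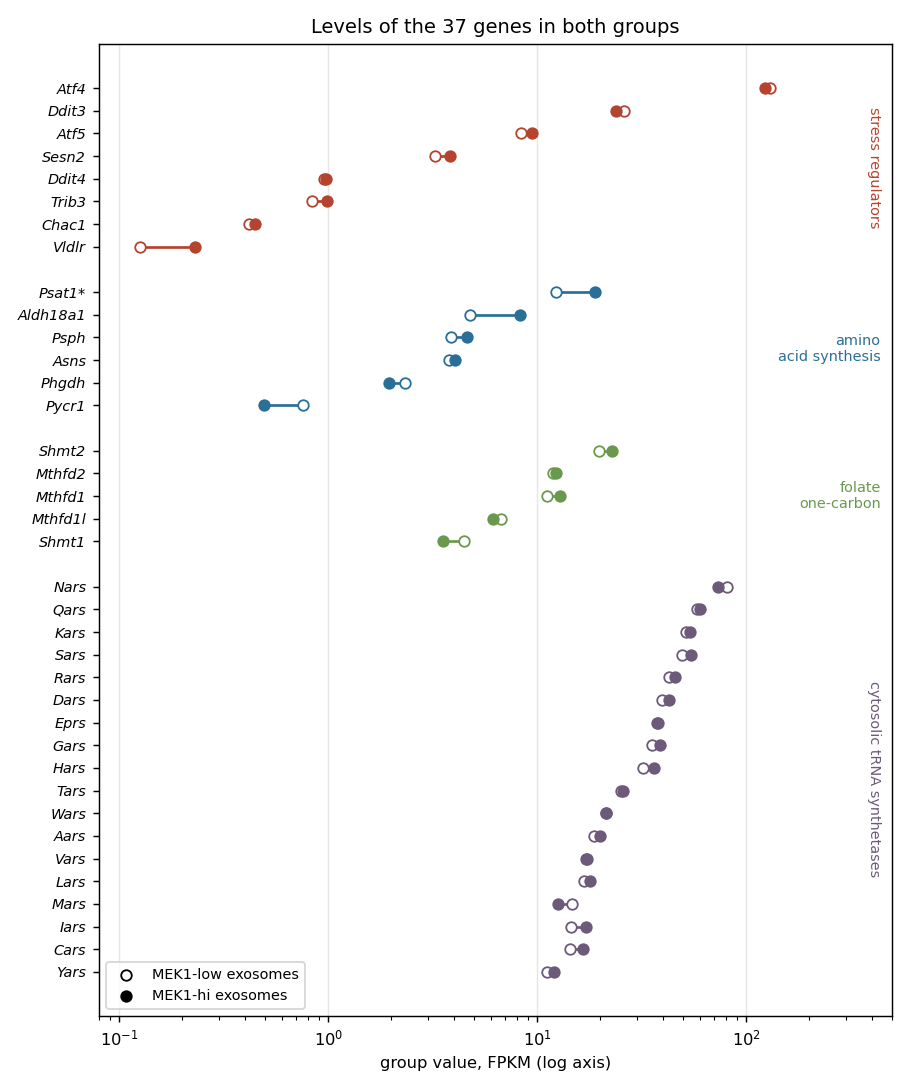
Level of each of the 37 genes with MEK1-low (open points) and MEK1-hi exosomes (filled points), in FPKM on a log axis, by gene group. The asterisk marks Psat1, the gene called, at 12.3 and 19.0 FPKM; for most tRNA synthetases the points touch or overlap.

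Among the enzymes of amino acid synthesis, Psat1 and Aldh18a1 had the largest differences. Psat1 (chromosome 19, 15904678 to 15947337, minus strand, mm10) encodes phosphoserine aminotransferase, which converts the product of Phgdh into phosphoserine on the way to serine. Its level was 12.3 FPKM after MEK1-low and 19.0 FPKM after MEK1-hi exosomes, 1.54-fold higher or 0.62 on the log2 scale. In the authors' deposited table its p was 0.0004 and its q 0.0200. No other transcript matched its messenger RNA over 200 bases or more at 95% identity. Aldh18a1 (chromosome 19, 40550257 to 40588463, minus strand) encodes the enzyme that opens proline synthesis from glutamate. Its values were 4.78 and 8.27 FPKM, a difference of 0.79 on the log2 scale that did not pass over all loci (p = 0.00535, q = 0.145 in the authors' deposited table).

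The enzymes on either side of Psat1 in the serine pathway did not share its call. Phgdh, phosphoglycerate dehydrogenase, which commits carbon to serine, stood at 2.33 and 1.96 FPKM (p = 0.390, q = 0.999 in the authors' deposited table). Psph, phosphoserine phosphatase, which completes serine, stood at 3.85 and 4.61 FPKM (p = 0.707, q = 0.999 in the authors' deposited table). Both of these levels are uncertain. A processed pseudogene of Phgdh on chromosome 8, Gm7901, matched 84.4% of the Phgdh transcript at 98.7% identity and was itself listed at 6.56 and 5.83 FPKM, above Phgdh, so that reads of this pair may have been split between them. Exons of Psph overlap those of Cct6a, a chaperonin subunit gene on the opposite strand, by 452 bases. The far more abundant Cct6a, in a joined locus, was listed at 127 and 205 FPKM, and no source used here says whether reads were counted by strand.

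Asns, asparagine synthetase, a classical ATF4 target whose motif is printed above, stood at 3.80 and 4.04 FPKM (p = 0.713 in the authors' deposited table). Pycr1, the mitochondrial enzyme that finishes proline synthesis, stood at 0.758 and 0.490 FPKM (p = 0.280 in the authors' deposited table), so that its lower value went opposite to the higher value of Aldh18a1 in the same pathway. The median log2 fold change over the 5 of these 6 enzymes at 1 FPKM or more was 0.21, but it was 0.63 over the pair at 5 FPKM or more, Psat1 and Aldh18a1, and 0.14 without Aldh18a1.

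Of the 8 stress regulators, none was called by Cuffdiff, 0 of the 6 tested had a p below 0.05 before adjustment, and those with a level above 5 FPKM differed little between groups. Atf4 (chromosome 15, 80255184 to 80257541, plus strand), the most abundant of the 37 genes, stood at 130 and 122 FPKM, -0.08 on the log2 scale (p = 0.573 and q = 0.999 in the authors' deposited table). Ddit3, which encodes CHOP, a C/EBP-type factor of prolonged stress, stood at 25.9 and 23.8 FPKM (p = 0.676 in the authors' deposited table). Its exons share 68 bases with Mars on the opposite strand. Atf5, an ATF4-related factor that serves the mitochondrial stress response, stood at 8.34 and 9.41 FPKM (p = 0.718 in the authors' deposited table). Exons of Atf5 share 82 bases with Nup62 and Il4i1 on the opposite strand, both listed at 25.4 and 24.9 FPKM.

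The remaining stress regulators were low. Sesn2, a leucine sensor that restrains mTORC1, stood at 3.25 and 3.84 FPKM (p = 0.230 in the authors' deposited table). Ddit4, another inhibitor of mTORC1, was listed at 0.953 and 0.976 FPKM, and Trib3, a pseudokinase that dampens ATF4 and CHOP activity, at 0.837 and 0.991 FPKM. Chac1, which degrades glutathione, was at 0.416 and 0.447 FPKM, and Vldlr, a lipoprotein receptor, at 0.126 and 0.230 FPKM, and neither was tested. Trib3, Chac1 and Vldlr, which hold the motif, were thus all under 1 FPKM in both groups, as was Pycr1. Other genes with the motif were more abundant, such as Gars at 35.5 and 38.8 FPKM and Tars at 25.3 and 25.6 FPKM. The median log2 fold change of the 4 regulators at 1 FPKM or more was 0.04, and it turned to -0.08 over the 3 at 5 FPKM or more.

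The 5 folate enzymes showed no call by Cuffdiff, and 0 had a p below 0.05 before adjustment. These enzymes load one-carbon units from serine onto folate, for purines, thymidylate and methyl groups. Shmt2, the mitochondrial hydroxymethyltransferase that splits serine, stood at 19.8 and 22.7 FPKM, and its cytosolic counterpart Shmt1 at 4.47 and 3.54 FPKM (p = 0.268 and 0.614 in the authors' deposited table). Shmt1 overlaps exons of Smcr8 on the opposite strand by 184 bases, and Smcr8 was listed at 22.7 and 20.3 FPKM. Mthfd2, the mitochondrial dehydrogenase that ATF4 is known to induce, stood at 11.9 and 12.3 FPKM, and Mthfd1l, the mitochondrial formate-releasing enzyme, at 6.74 and 6.16 FPKM. Mthfd1, the cytosolic trifunctional enzyme, stood at 11.1 and 12.8 FPKM. The 3 of 5 with the higher value after MEK1-hi exosomes were Shmt2, Mthfd1 and Mthfd2, and the median log2 fold change of the group was 0.05, or 0.12 without Shmt1.

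The 18 cytosolic tRNA synthetases, each of which joins 1 amino acid to its tRNA (Eprs joins both glutamate and proline), were all expressed and none was called. With MEK1-hi exosomes 15 had the higher and 3 the lower value, and 0 of 18 had a p below 0.05 before adjustment in the authors' deposited table. Each of the 18 log2 fold changes lay between -0.21 and 0.23. For comparison, 161 of the 5791 tested loci whose higher value was between 10 and 100 FPKM, as for all 18 synthetases, were called (2.78%), and the smallest absolute log2 fold change among those calls was 0.48. A difference of the size seen in the synthetases was therefore below any that the authors' test called at this level. The median log2 fold change of the 18 was 0.09, and their levels summed to 580 and 602 FPKM.

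Nars, for asparagine, was the most abundant synthetase in both groups at 80.5 and 73.3 FPKM, followed by Qars (57.9 and 60.0 FPKM, glutamine), Kars (51.2 and 53.6 FPKM, lysine) and Sars (49.3 and 54.3 FPKM, serine). Rars, Dars, Eprs, Gars and Hars, for arginine, aspartate, glutamate with proline, glycine and histidine, lay between 32.0 and 45.5 FPKM. The least abundant in both groups was Yars, for tyrosine, at 11.2 and 12.1 FPKM, and the mean of both groups differed 6.62-fold between Nars and Yars. Kars and Sars changed places between the groups, as did Eprs and Gars, and Vars and Lars, and Mars went from above Iars and Cars to below both, so neighbours in this order cannot be separated with 1 value per group.

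Iars, for isoleucine, had the largest difference among the synthetases, 14.5 and 17.1 FPKM (log2 fold change 0.23, p = 0.130, q = 0.860 in the authors' deposited table). A processed pseudogene on chromosome 1, Gm4849, matched 37.4% of its transcript at 96.0% identity and was listed at 1.48 and 1.92 FPKM. Cars, for cysteine, stood at 14.4 and 16.6 FPKM (p = 0.308 in the authors' deposited table). Mars, for methionine, had the lowest ratio, at 14.6 and 12.6 FPKM (log2 fold change -0.21, p = 0.367 in the authors' deposited table). Wars, for tryptophan, which interferon gamma is known to induce in macrophages, stood at 21.2 and 21.3 FPKM (p = 0.976 in the authors' deposited table).

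Aars, for alanine, whose row is joined with Exosc6, stood at 18.6 and 19.9 FPKM, so reads of the 2 genes cannot be told apart. Tars, for threonine, stood at 25.3 and 25.6 FPKM, Vars, for valine, at 17.2 and 17.1 FPKM, and Lars, for leucine, at 16.7 and 17.9 FPKM. The log2 fold changes of Dars, Eprs, Gars, Hars, Kars, Nars, Qars, Rars, Sars and Yars lay between -0.13 and 0.17. Exons of Hars share 195 bases with Hars2 on the opposite strand, which was listed at 14.3 and 13.7 FPKM. Of the 18 enzymes, 8 sit in the large multisynthetase complex of the cytosol (Dars, Eprs, Iars, Kars, Lars, Mars, Qars and Rars), a split made after the values were seen. The median log2 fold change was 0.08 for these 8 and 0.10 for the other 10, and 7 of 8 and 8 of 10 had the higher value with MEK1-hi exosomes.

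**Figure D3:**
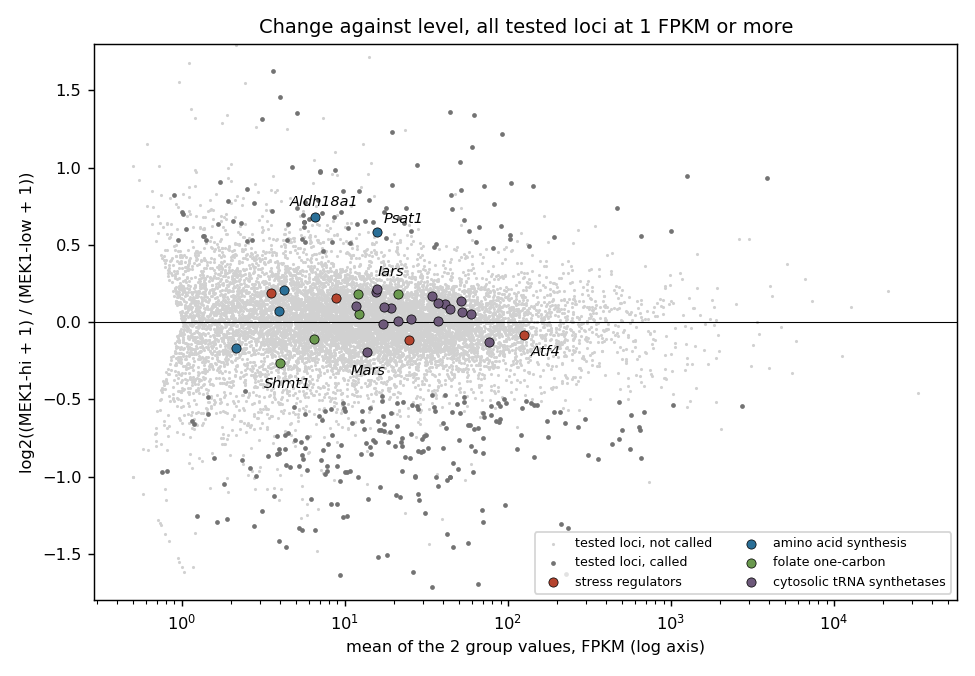
Log2 fold change, on the FPKM + 1 scale, against the mean of the 2 group values in FPKM (log axis) for all tested loci at 1 FPKM or more (grey, darker where called) and for 32 of the 37 genes (coloured by group). The synthetases lie among uncalled loci near 0, Psat1 (0.58) and Aldh18a1 (0.68) stand highest of the 32, and 29 loci beyond 1.8 on either side are not drawn.

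The values of genes with and without the motif overlapped. The 6 with it that were tested at 1 FPKM or more (Asns, Aars, Gars, Iars, Tars and Yars) all had the higher value with MEK1-hi exosomes, with log2 fold changes from 0.02 to 0.22 and a median of 0.10. All of them but Asns are cytosolic synthetases, a group in which 15 of 18 had the higher value. Below that level, Trib3 with the motif was also higher (0.837 and 0.991 FPKM), but Pycr1 with the motif was lower (0.758 and 0.490 FPKM). Of the 19 without the motif at 1 FPKM or more, 13 had the higher value, with log2 fold changes from -0.27 to 0.68 and a median of 0.07. No difference between these was tested, and neither of the largest values, those of Psat1 and Aldh18a1, belonged to a gene with the motif in the window. In the further lists described below, Atf3, Nupr1, Jdp2, Herpud1 and Slc7a11 held the motif, were tested and had the lower value. Got1, also tested and with the motif, had the higher value. On the FPKM + 1 scale, the log2 fold changes of these genes ranged from -0.99 (Slc7a11) to 0.11 (Got1).

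Other genes of the pathway, in 6 lists of 89 genes of which 79 were tested, gave 2 calls, both lower, in the authors' deposited table. That is 2.53% of those tested, near the background of 2.44% over all loci in either direction (1.69% lower). At p below 0.05 before adjustment, 10.1% of the 79 stood against 8.66% of all loci, with 2 higher and 6 lower. The share called is thus not a result about these lists, and the 2 genes are described singly. Cebpb, which encodes C/EBP beta, a partner that pairs with ATF4, fell from 299 to 121 FPKM, or -1.31 on the log2 scale, with a q of 0.00349 in the authors' deposited table. Slc7a11, the cystine transporter that both ATF4 and NRF2 are known to induce, fell from 36.1 to 17.6 FPKM, with the same q of 0.00349 in the authors' deposited table. This q goes with the smallest p that Cuffdiff gave, 5e-05, which 181 loci shared, so it does not rank the 2 genes. These 2 falls stand beside the difference of -0.08 for Atf4.

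Among 17 further ATF4 targets and partners, 13 were tested, 9 of them with the lower value, and the median log2 fold change was -0.13. Gdf15, a stress cytokine, stood at 3.75 and 2.10 FPKM (p = 0.00650, q = 0.165 in the authors' deposited table). Nupr1, a stress-induced chromatin protein, stood at 11.3 and 6.77 FPKM (p = 0.0163, q = 0.300 in the authors' deposited table). Gpt2, the mitochondrial alanine aminotransferase, went the other way, at 3.39 and 5.14 FPKM (p = 0.0209, q = 0.348 in the authors' deposited table).

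Of the amino acid transporters, 8 of 12 were tested and Slc7a11 was the 1 called; Slc7a5 is not analysed here. Slc6a9, a glycine transporter, stood at 4.85 and 1.76 FPKM, and just missed the threshold (p = 0.00130, q = 0.0519 in the authors' deposited table). Slc3a2, the heavy chain that Slc7a11 needs at the membrane, stood at 334 and 306 FPKM and was not called. It was chosen after its value was seen.

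None of 20 tested genes of further folate, glycine and proline metabolism was called, out of 22. Sfxn1, which carries serine into mitochondria, stood at 9.72 and 14.0 FPKM, close to the threshold (p = 0.00140, q = 0.0548 in the authors' deposited table), and was higher with MEK1-hi exosomes as Psat1 was. Ggh, which trims folate polyglutamates, stood at 44.0 and 35.6 FPKM (p = 0.0423, q = 0.525 in the authors' deposited table). The most abundant of the list, Mthfs (413 and 476 FPKM), shares its row with Bcl2a1b, and Dld, of the glycine cleavage system, stood at 40.5 and 41.7 FPKM.

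None of 16 genes of eIF2 signalling was called. They encode the phosphorylated subunit of eIF2, its kinases and exchange factor, the phosphatase subunits that reverse the phosphorylation (Ppp1r15a and Ppp1r15b), and regulators of the kinases and the mitochondrial stress relay (Gcn1, Impact, Dele1 and Oma1). The values were higher for 9 and lower for 7, and none had a p below 0.05 before adjustment in the authors' deposited table. Eif2s1, the subunit that is phosphorylated, stood at 35.8 and 45.1 FPKM, and Eif2b2, of the exchange factor, at 29.7 and 30.4 FPKM. None of 17 mitochondrial tRNA synthetases was called, with 0 at p below 0.05 before adjustment, 12 of the 17 at the higher value after MEK1-hi exosomes and a median log2 fold change of 0.16. The most abundant were Lars2, with 60.5 and 67.8 FPKM, and Fars2, with 19.2 and 21.5 FPKM. The 5 genes for phenylalanine tRNA synthetase and the scaffolds of the multisynthetase complex gave no call and 0 with p below 0.05 before adjustment, with Aimp1 at 44.0 and 46.7 FPKM and Farsb at 34.5 and 38.2 FPKM.

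**Figure D4:**
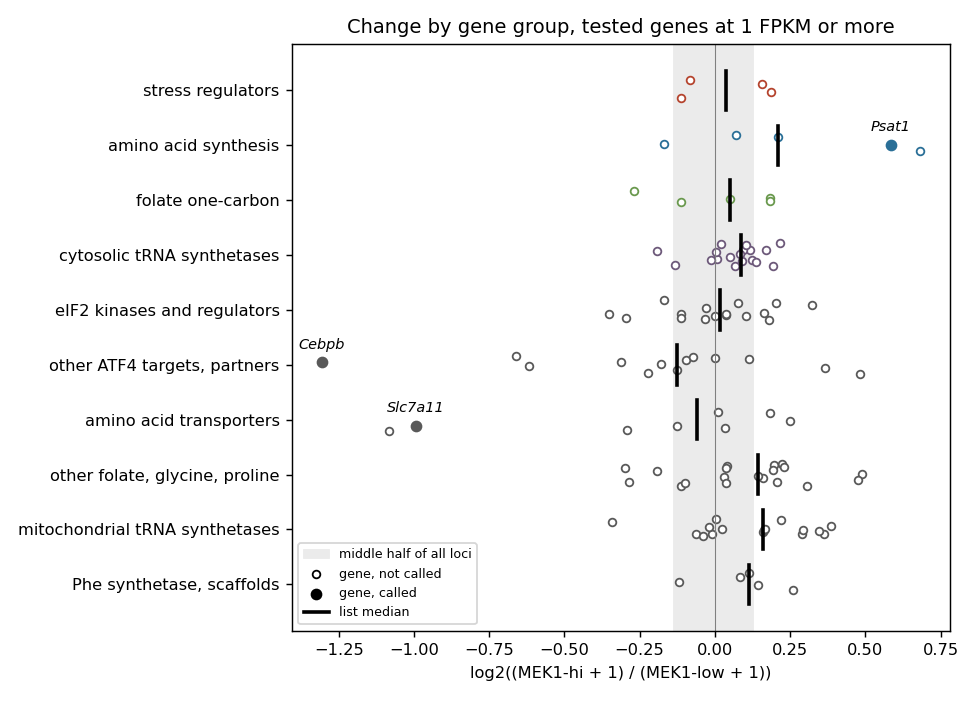
Log2 fold change on the FPKM + 1 scale for each tested gene at 1 FPKM or more, in the 4 groups of the 37 genes (coloured) and 6 lists of other pathway genes (dark grey). Filled points are called, the black bar is the list median and the grey band holds the middle 50% of all loci, from -0.14 to 0.13; Psat1 is the filled point on the higher side, Cebpb and Slc7a11 those on the lower.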

How the data were processed

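Per the labels' protocols, stranded mRNA libraries were made from 750 ng of RNA and sequenced as paired 100-base reads, aiming at 25000000 per sample. FastQC 0.73, TopHat, Cufflinks and Cuffdiff were used on mm10, per the submitters' processing notes; other versions, settings and strand handling are not given in the sources used here. The authors deposited 1 FPKM value per group and locus, with the p-value, q-value and test statistic (a signed score) of Cuffdiff, per the file headers. The value column GFP exo was matched to MEK1-low through the treatment label.

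Log2 fold changes were computed here as MEK1-hi over MEK1-low, and list medians with a pseudocount of 1 FPKM over tested loci at 1 FPKM or more. Recomputed Benjamini-Hochberg values over the 12648 tested loci matched the deposited q-value within 5.19e-07. Of these loci, 871 join several genes. Symbols (54771 of 55029 identifiers), positions and overlaps came from GENCODE M21. Transcript copies were sought with BLAST+ 2.17.0. Code was tested on simulated data with pandas 2.3.3.

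The genes and lists were chosen with earlier results of these data known. All 37 genes are given. Of the other lists, called genes, up to 3 with p under 0.05 and, where none was called, the 2 most abundant are named; Slc3a2, Atf3 and Herpud1 were added after their values were seen.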

Additional observations from a re-analysis of the deposited data

How the results depend on the processing

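Replicates could not be left out in turn, since the table holds 1 value per group. No paired analysis was possible because the table holds 1 value per group and none per sample. The call of Psat1 held with an absolute test statistic of at least 2 required besides and without joined loci, settings that can only remove calls. At q under 0.10 no further gene of the 37 was called. At q under 0.10 other pathway genes called higher went from 0 to 1 (Sfxn1), and those called lower from 2 to 3. Of 30 alternative list medians, 23 moved by less than 0.05 without a change of sign, a limit set here because no spread between samples exists. Among these 23, centring on the median of all loci (0.0009) could move no median by that limit. The stress, amino acid and folate lists held no joined locus, so leaving such loci out could not change their medians. The stress regulators' median of 0.04 became -0.082 at 5 FPKM or more, and also without their most changed gene. That of the amino acid enzymes, 0.21, became 0.63 at 5 FPKM or more, 0.14 without a filter and 0.14 without Aldh18a1. That of the folate enzymes, 0.05, became 0.12 at 5 FPKM or more and 0.12 without Shmt1. These lists hold 4 or 5 genes, so each change follows from which genes remain. Centring on the median of all loci changed no sign among the 37 genes. That median was 0.001 without a pseudocount, smaller than the change of any of the 37 genes, so no sign could change. The depth is unknown, so precision at low FPKM could not be given.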

Other observations

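The motif TGATGNAA was also counted in RefSeq promoters of the other lists. It was present in 6 of 15 further ATF4 targets and partners (Atf3, Nupr1, Jdp2, Got1, Fgf21 and Herpud1) and in 2 of 8 amino acid transporters (Slc7a11, with 2 matches, and Slc1a4). It was absent from this window in 12 genes of eIF2 signalling, 15 of further folate, glycine and proline metabolism, 5 of phenylalanine tRNA synthetase and scaffolds, and 14 mitochondrial tRNA synthetases, against 5 of 11 cytosolic ones. These counts are descriptions, with no test. Of the 2 other pathway genes called, Cebpb held no match and Slc7a11 did. Atf3, another stress-induced factor, had levels of 236 and 202 FPKM (MEK1-low first), and Herpud1, of the degradation machinery of the endoplasmic reticulum, at 11.9 and 9.38 FPKM, neither of them called.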
